A study of Mus musculus with 6 samples.

Results

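The genes described here are 10 mast cell granule genes, chosen by name from the array's annotation: the chymase locus proteases Mcpt1, Mcpt2, Mcpt4, Mcpt8 and Cma1, the carboxypeptidase Cpa3, the tryptases Tpsab1, Tpsb2 and Tpsg1, and Hdc. They have 11 of the 55681 probes on the array and are 10 of 34964 genes and other named features. The set was proposed with the knockdown results known, so the members' differences between the groups are given as a description, without p-values.

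Mast cells store proteases, histamine and a negatively charged proteoglycan in the same secretory granules. The proteases are chymases, tryptases and a carboxypeptidase, which are bound to the proteoglycan serglycin and are released with histamine when the cell degranulates. Histamine is made from histidine by histidine decarboxylase, the product of Hdc, and mast cells and basophils are major blood-lineage sources of it. GATA-1 and GATA-2 are transcription factors with roles in both the erythroid and the mast cell lineage, and Mi2β, encoded by Chd4, is an ATPase of the nucleosome remodelling and deacetylase complex NuRD.

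The samples are cultures of G1E-ER-GATA-1, a line of immature mouse red cell precursors without functional GATA-1 of their own, in which an added GATA-1 joined to an oestrogen receptor domain becomes active when β-estradiol is present. The control group (3 arrays) received a non-targeting siRNA and the knockdown group (3 arrays) an siRNA against Mi2β. All 6 samples shared the rest of the protocol: nucleofection at 0 h and 24 h, β-estradiol from 24 h, and harvest at 48 h, so that every cell sample had 24 h of active GATA-1, and the medium of all of them held erythropoietin, puromycin and supernatant of CHO cells that make Kit ligand, a growth factor for mast cells too. The labels name 1 cell line and do not say whether replicates were separate cultures, so errors and p-values cover only how far these 6 samples scatter, which could be technical scatter alone.

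The siRNA target fell: Chd4 was at 5.89 ± 0.13 (SD, n = 3) on control arrays and 4.59 ± 0.04 (SD, n = 3) on knockdown arrays, in log2 units relative to each array's 75th percentile of signal, which is 2.48-fold lower (limma adjusted p = 0.00161). All 12 erythroid marker genes measured were well above background on every control array, as the label of the line says. The share of probes called well above background was 53.1% to 56.5% on control arrays and 61.3%, 74.0% and 48.5% on knockdown replicates 1, 2 and 3. The scanner software's processed signals, which are background-subtracted intensities, are given below as deposited, and the 75th percentile of signal ran from 359 to 444 over the arrays. "Well above background" is the software's own call for a spot.

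Each probe is a 60-base oligonucleotide. The stretches below are shown because the chymase genes are neighbouring copies of one another. The probes of Mcpt1 and Mcpt2 share a run of 10 bases, in capitals, and no other pair of the 11 probes shares a run of more than 8. Only 30 bases that hold that run are printed, with the coordinates of the whole probe.
Mcpt1 (chr14:56638928-56638987, mm9): agtcataaatggcAAGTAGCTGAgaagtct
Mcpt2 (chr14:56663261-56663320, mm9): AAGTAGCTGAaaagcctaaccagcctgagt

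The probes of Tpsab1, Tpsb2 and Hdc follow in full. The first is of a gene well above background only on knockdown arrays, and the last of a gene with a several-fold difference. The middle one is the second of 2 probes for its gene. Hybridisation of one gene's transcript to the probe of a copy was not tested.
Tpsab1 (chr17:25480640-25480699, mm9): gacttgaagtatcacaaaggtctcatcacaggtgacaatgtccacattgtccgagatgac
Tpsb2 (chr17:25504493-25504552, mm9): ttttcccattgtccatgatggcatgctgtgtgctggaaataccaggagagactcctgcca
Hdc (chr2:126419516-126419575, mm9): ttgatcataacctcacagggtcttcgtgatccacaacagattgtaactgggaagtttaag

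With Mi2β knocked down, transcripts of 3 chymase locus genes and of Hdc were several-fold higher. Those of 2 tryptase genes, Tpsab1 and Tpsg1, were 2.57-fold and 2.71-fold higher by the floor-based values given below. With the normexp background correction their differences were 0.48 and 0.38 on the log2 scale. Cpa3 (1.52-fold) and Tpsb2 (1.17-fold) differed by less, and Mcpt8 and Cma1 were at or near background. On the control arrays 6 members were already well above background on all 3 arrays (Mcpt1, Mcpt2, Mcpt4, Cpa3, Tpsb2 and Hdc), Cma1 on 1 of 3, and Mcpt8, Tpsab1 and Tpsg1 on none. Of the 9 members tested in the fit over all genes, 6 were past its threshold in the upward direction (background 4.99% of 22133 genes) and 0 in the downward direction (background 4.56%), none of the 9 having a limma change below 0, and nothing is read from these counts because the same contrast proposed the genes. In 8 of the 9, every knockdown array lay above every control array, as it did for 12.7% of all genes tested. The median change was 2.08 on the log2 scale over these 9 members and -0.03 over all genes. It was 1.44 with Tpsab1 and Tpsg1 at the floor-based values given below, and 0.48 with the normexp background correction. The 9 passed a filter of 3 arrays well above background, which Tpsab1 and Tpsg1 passed only through the knockdown arrays, so the counts and the median do not cover Mcpt8. In RNA from a whole culture, more cells of a type and more RNA per cell cannot be told apart.

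**Figure D1:**
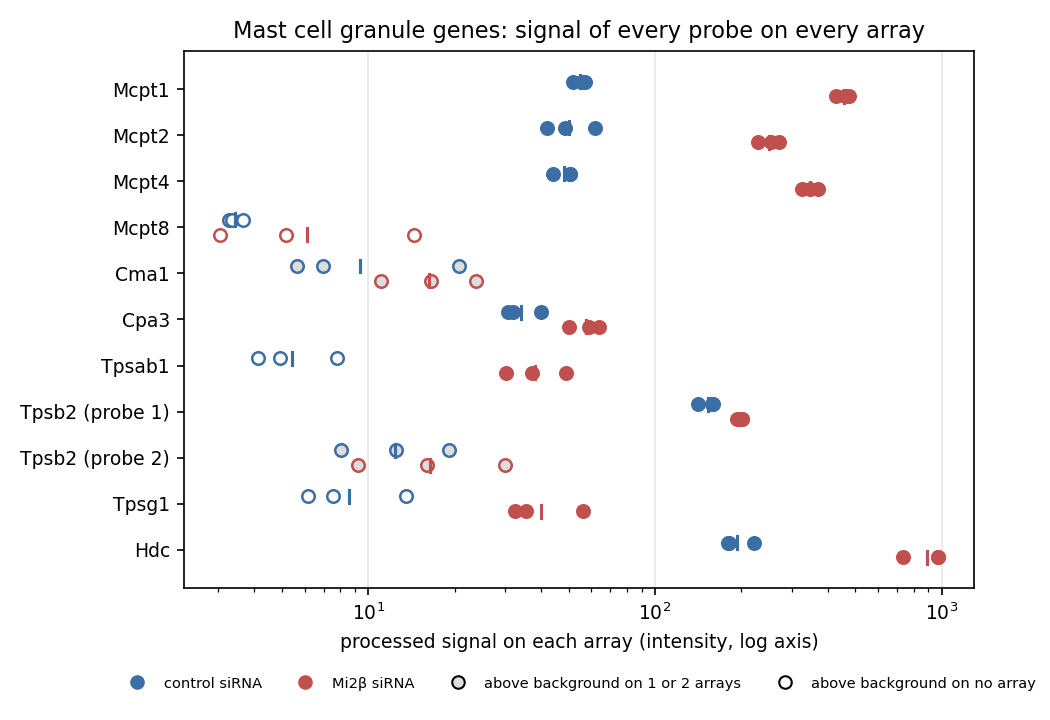
Processed signal (intensity, log axis) of the 11 probes of the 10 genes on each of the 6 arrays. Blue points are control siRNA and red points Mi2β siRNA, the short bars are geometric means over 3 arrays, filled points mark groups with all 3 arrays well above background, grey points 1 or 2 arrays and open points none. The groups are widely apart for Mcpt1, Mcpt2, Mcpt4, Tpsab1, Tpsg1 and Hdc, are apart by less in fold for Cpa3 and the first Tpsb2 probe, and overlap for Mcpt8, Cma1 and the second Tpsb2 probe.

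Mcpt1, a chymase known from mucosal mast cells, had the largest difference among the members measured in both groups. Its signals were 51.9, 55.9 and 56.9 on control arrays 1 to 3 and 462, 428 and 477 on knockdown arrays 1 to 3. The groups did not overlap. On the scaled log2 values the difference was 2.91 (SE 0.07 over 3 against 3 arrays), or 7.5-fold, which ranked 97 of 22133 genes by size of rise.

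Mcpt4 (probe at chr14:56678589-56678648), a chymase of connective tissue mast cells, had a difference close in size to that of Mcpt1. Its signals were 44.2, 50.6 and 50.6 on the control arrays and 370, 325 and 348 on the knockdown arrays. The difference was 2.70 (SE 0.07), or 6.49-fold, again without overlap. Mcpt2, the second mucosal chymase, had control signals of 48.7, 61.7 and 41.9 and knockdown signals of 272, 228 and 255. Its control arrays were more spread than those of Mcpt1 and Mcpt4, and its difference was smaller at 2.18 (SE 0.20), or 4.53-fold.

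Cma1 encodes the mouse alpha-chymase, and Mcpt8 a protease best known as a basophil marker. Cma1 had signals of 20.8, 6.98 and 5.65 on the control arrays and 16.5, 23.8 and 11.1 on the knockdown arrays. It was well above background on 1 control and 2 knockdown arrays, the groups overlapped, and the difference of 0.66 had an SE of 0.68. Mcpt8 had control signals of 3.27, 3.36 and 3.67 and knockdown signals of 3.05, 14.5 and 5.15. None of its 6 values was well above background, so no fold is given, and at this signal a fall or a small rise was not detectable. The deposited mm9 coordinates of both probes are wider than the 60 bases of the probe: chr14:56561491-56562550 for Cma1, a span of 1060, and chr14:56702300-56702674 for Mcpt8, a span of 375.

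Tryptases are serine proteases that assemble on heparin in the granule. Tpsab1 had control signals of 4.13, 7.77 and 4.92, none called well above background, and knockdown signals of 49, 37.2 and 30.3, all called so. It was 2.57-fold higher with a floor set for the control group, taking on each array the higher of its own value and the floor. The floor was the lowest probe value called well above background. After flagged spots were dropped and repeated spots averaged, it was 13.4, 12.4 and 14.5 in units of signal on control arrays 1 to 3. The fold is not a strict minimum, because a probe above the floor can go uncalled. Mcpt8 did so on knockdown array 2, at 14.5 where the lowest called value was 9.24. RefSeq's annotation of GRCm38.p6 types Tpsab1 as a transcribed pseudogene.

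Tpsg1 (probe at chr17:25511199-25511258), a tryptase that keeps a membrane anchor, had control signals of 6.17, 7.56 and 13.6, all not well above background, and knockdown signals of 35.5, 32.5 and 56.2. With the same floor it was 2.71-fold higher, again not a strict minimum. Across the array 189 of 55681 probes (0.339%) were, like those of Tpsab1 and Tpsg1, well above background on all 3 knockdown arrays and no control array. The call of Tpsg1 was lost under more alternatives than those of the other 5 higher members: it no longer passed the threshold of the fit with normexp background correction (0.38) or quantile normalization (1.68), without the detection filter, or when control replicate 1 (1.85), control replicate 2 (2.01) or knockdown replicate 1 (2.22) was left out.

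Tpsb2, a main tryptase of mouse mast cells, differed little between the groups. Its first probe (chr17:25504819-25504878, mm9) gave 160, 141 and 158 on the control arrays and 201, 194 and 201 on the knockdown arrays. The groups did not overlap, but the difference was only 0.23 (SE 0.06), or 1.17-fold, did not pass the threshold, and became 0 with median scaling of the arrays. Its second probe gave 19.1, 12.5 and 8.02 against 16, 30 and 9.18, with overlapping groups and a difference of 0.25 (SE 0.64). That probe was well above background on 1 control and 2 knockdown arrays.

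Cpa3 (probe at chr3:20115674-20115733), mast cell carboxypeptidase A, trims peptides in the granule alongside the chymases. Its signals were 40.2, 30.7 and 32.1 on the control arrays and 63.7, 59 and 50.2 on the knockdown arrays. The groups did not overlap. The difference of 0.61 (SE 0.15), or 1.52-fold, did not pass the threshold of the fit, and it was 0.19 with normexp and 0.37 with median scaling.

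Hdc, the histamine-forming enzyme, had a difference of several fold. Its signals were 221, 180 and 181 on the control arrays and 970, 736 and 975 on the knockdown arrays. The difference was 2.05 (SE 0.15), or 4.14-fold, without overlap. Among the 6 members past the threshold it moved least in proportion with the background correction, to 1.75 with normexp.

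The size of most differences depended on the background correction. With normexp, which adds an offset of 50 and so compresses dim signals, Mcpt1 was at 1.99, Mcpt4 at 1.73, Mcpt2 at 1.25 and Tpsab1 at 0.48, all in the same direction as before. The normexp values of Tpsab1 and Tpsg1 lie below the floor-based values given above, which are for the processed signals only. With array median scaling the median of all genes was -0.27, and Mcpt1 was at 2.67, Mcpt4 at 2.47, Mcpt2 at 1.95 and Hdc at 1.82. The directions of Mcpt1, Mcpt2, Mcpt4, Cpa3, Tpsab1, Tpsg1 and Hdc were the same under all 4 scalings.

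**Figure D2:**
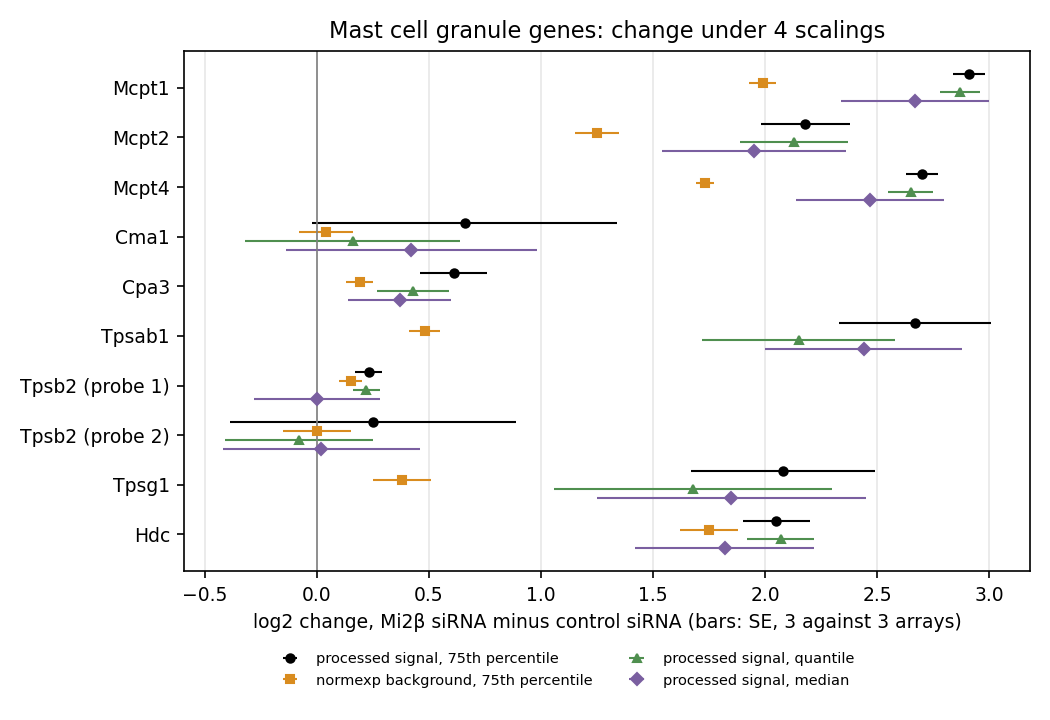
Log2 change (Mi2β siRNA minus control siRNA) of 10 probes under 4 combinations of background correction and scaling, with bars of 1 SE over 3 against 3 arrays. Mcpt8, with 0 of 6 arrays well above background, is not drawn. For Mcpt1 the points run from 1.99 to 2.91, for Tpsab1 from 0.48 to 2.67, and for the first Tpsb2 probe from 0 to 0.23.

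No other tested protease of the 2 serine protease clusters passed the threshold. Of 14 further proteases of the chymase locus and granzyme family, 5 were tested, and 0 rose and 0 fell by limma (0 and 1 at an unadjusted p under 0.05). The largest values were those of Gzmm, a granzyme (-0.80, adjusted p = 0.185), and Ctsg, cathepsin G (0.17, adjusted p = 0.753). Of 10 genes of the tryptase locus list, 9 were tested, and 0 rose and 0 fell by limma (0 and 0 at an unadjusted p under 0.05), with Prss41 at -0.28 (adjusted p = 0.379) and Prss28 at 0.26 (adjusted p = 0.576). Of 3 tested carboxypeptidases related to Cpa3, 0 rose and 0 fell by limma (0 and 0 at an unadjusted p under 0.05). Cpa5 was at 1.09 (adjusted p = 0.384), a value that came from knockdown replicate 1, whose signal was 277 against 55.7 and 45.5 on the other knockdown arrays, and Cpb2 was at 0.38 (adjusted p = 0.224).

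In chromosomal order the gene lying among the higher chymase locus members, Mcpt9, was not tested. The gene between the higher tryptases, Tpsb2, did not pass the threshold. On chromosome 14 the order of protein-coding genes in the RefSeq table is Cma1, Cma2, Mcpt1, Mcpt2, Mcpt9, Mcpt4, Mcpt8 and Ctsg, followed by granzyme genes. Cma2, between Cma1 and Mcpt1, was well above background on all arrays and was at -0.01 (SE 0.12, adjusted p = 0.965). Mcpt9 was well above background on 1 knockdown array and no control array and was not tested. Further out on the side of Cma1, Ripk3, a kinase of necroptosis, rose by 4.45 (SE 0.44, limma adjusted p = 0.00338; 1.87 with normexp) from a level well above background on 1 control array. Nfatc4 rose by 0.53 (SE 0.10, adjusted p = 0.0313), a call lost when any 1 array was left out, and the 4 genes between it and Cma1 did not pass or were not tested. Of the 14 other genes of this window 6 were tested and 2 rose.

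On chromosome 17, Tpsab1, Tpsb2 and Tpsg1 are consecutive, so the gene between the 2 higher tryptases is the one that differed by 0.23. Prss34, Prss28 and Prss29 on one side were at 0.02, 0.26 and 0.25, and Cacna1h, a calcium channel gene on the other, was at 0.10, none past the threshold. At the end of that window Gng13, a G protein subunit gene, rose by 3.12 (SE 0.26, limma adjusted p = 0.00189), and no other of the 11 genes tested in the window passed. Beside Cpa3, 4 of 8 genes were tested and Hltf fell by 0.45 (SE 0.09, adjusted p = 0.0289), a call lost when any 1 array was left out. All 8 genes beside Hdc were tested and 0 rose and 0 fell by limma (4 in all at an unadjusted p under 0.05). Their values ran from -0.53 (Atp8b4) to 0.43 (Slc27a2).

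**Figure D3:**
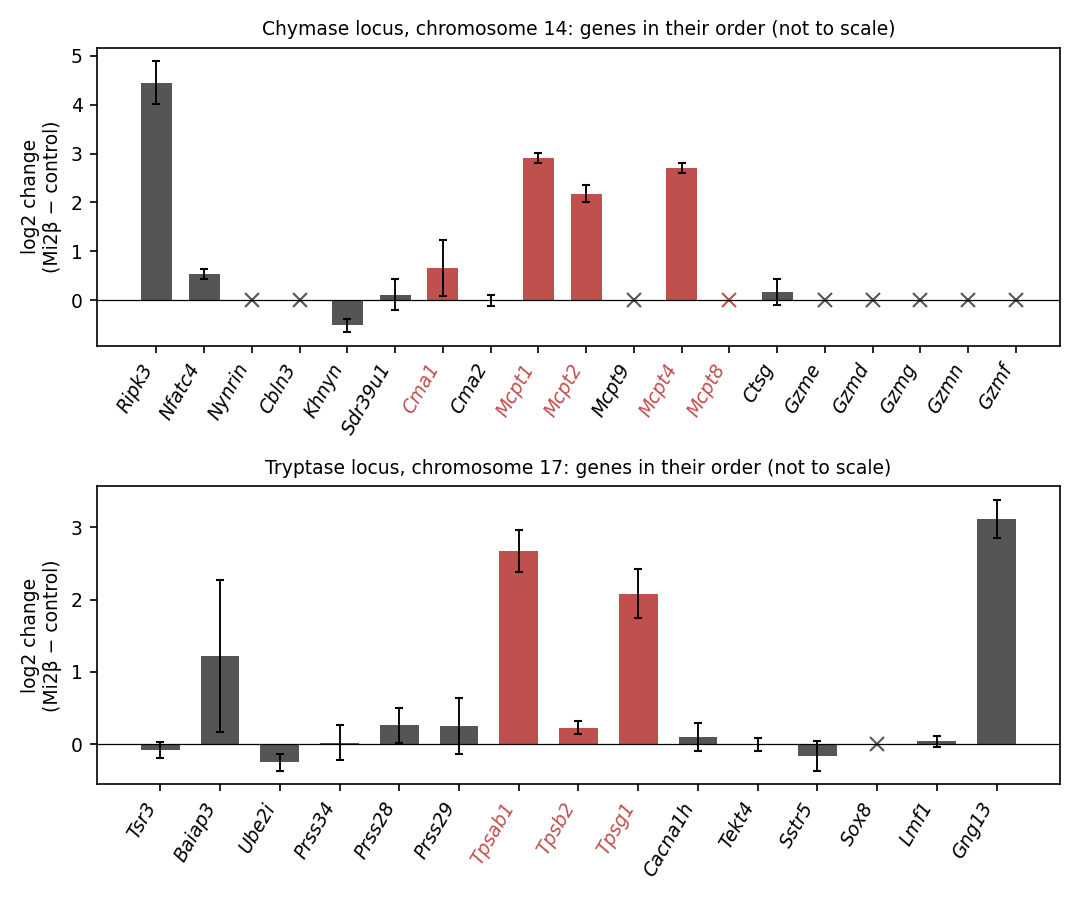
Log2 change (Mi2β siRNA minus control siRNA) of genes in their chromosomal order at the chymase locus (upper panel) and tryptase locus (lower panel), spaced evenly and not to scale. Bars are changes with the SE of the limma fit, red marks the mast cell granule genes, grey the other genes, and a cross a gene that was not tested. Mcpt1, Mcpt2 and Mcpt4 stand at 2.18 to 2.91 beside Cma2 at -0.01, and Tpsab1 and Tpsg1 flank Tpsb2 at 0.23.

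The sequence before the start of each gene was examined because GATA-1, the factor switched on in these cells, binds GATA letters flanked by particular bases. RefSeq windows of 250 bases (GRCm38.p6) were present for 7 of the 10 members, with 2 starts for Tpsg1. The search was for AGATAA and also AGATAG, and likewise for TGATAA and also TGATAG, each on either strand. At least 1 was found in 6 of these 8 windows and in 26.5% of 32851 windows of all genes. A match is a description of letters and not a binding site. The windows of Mcpt1, Mcpt4 and Hdc are printed as those of members with several-fold differences, and that of Cpa3 as one with a match and a smaller difference. Matches are in capitals.
Mcpt1 (chr14:56017714-56017963, plus strand): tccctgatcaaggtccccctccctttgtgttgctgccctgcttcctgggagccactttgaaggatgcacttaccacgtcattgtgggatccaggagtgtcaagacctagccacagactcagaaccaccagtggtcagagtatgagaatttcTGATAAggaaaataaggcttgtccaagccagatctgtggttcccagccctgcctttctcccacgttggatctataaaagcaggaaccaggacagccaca
Mcpt4 (chr14:56062311-56062560, minus strand): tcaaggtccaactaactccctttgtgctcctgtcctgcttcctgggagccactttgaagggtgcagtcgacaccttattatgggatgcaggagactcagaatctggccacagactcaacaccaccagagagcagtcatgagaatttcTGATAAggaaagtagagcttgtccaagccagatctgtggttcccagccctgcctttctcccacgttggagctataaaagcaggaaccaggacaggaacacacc
Cpa3 (chr3:20242182-20242431, minus strand): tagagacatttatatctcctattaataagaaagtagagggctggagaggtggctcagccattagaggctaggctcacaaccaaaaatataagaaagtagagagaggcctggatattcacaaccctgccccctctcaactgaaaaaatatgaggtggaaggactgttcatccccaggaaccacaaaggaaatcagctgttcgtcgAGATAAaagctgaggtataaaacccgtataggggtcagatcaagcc
Hdc (chr2:126618679-126618928, minus strand): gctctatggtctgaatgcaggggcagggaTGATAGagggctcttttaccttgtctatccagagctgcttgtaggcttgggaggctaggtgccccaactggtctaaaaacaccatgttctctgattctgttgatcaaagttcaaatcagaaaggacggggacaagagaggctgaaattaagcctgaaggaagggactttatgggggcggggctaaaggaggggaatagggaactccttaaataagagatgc

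The Mcpt1 and Mcpt4 windows were 81.9% identical in a global alignment, against 54.3% for Mcpt1 and Mcpt8, 51.3% for Mcpt1 and Cma1, and 54.1% for Mcpt4 and Cma1. The longest run shared by the Mcpt1 and Mcpt4 windows had 53 bases and held no GATA match. Both windows hold TGATAA inside another shared run, atgagaatttcTGATAAggaaa, 99 bases before the start in Mcpt1 and 103 in Mcpt4. The match begins 46 bases before the start in Cpa3, 79 in Cma1, 93 in 1 window of Tpsg1 and 221 in Hdc, and the Mcpt8 window holds none. Windows with a match belong to Mcpt1, Mcpt4 and Hdc, which were several-fold higher, to Tpsg1 (2.71-fold with the floor) and to Cpa3 (0.61, SE 0.15). They also belong to Cma1 (0.66, SE 0.68), which was near background, as was Mcpt8. A relation of these letters to the changes was not tested. The letters TGTGGT, of the kind RUNX factors bind, were in 5 of the 8 windows and in 14% of all, the E-box letters CAGCTG in 1 of 8 and 13.0%, and the E-box letters CATGTG in 0 of 8 and 12.3%, each on either strand. The windows with TGTGGT were those of Mcpt1, Mcpt4, Mcpt8 and Cpa3 and 1 of Tpsg1, and those of Cma1 and Hdc held none. A relation of TGTGGT to the changes was not tested either.

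Around the members, genes of the histamine pathway other than Hdc did not pass the threshold. Of 4 tested genes of histamine handling, 0 rose and 0 fell by limma (1 and 0 at an unadjusted p under 0.05). Slc18a2, the vesicular transporter that loads histamine into granules, was at 0.42 (adjusted p = 0.124), and the receptor gene Hrh1 at -0.27 (adjusted p = 0.361). The degrading enzyme genes Hnmt and Aoc1 were well above background on 0 of 6 arrays. Hdc uses a vitamin B6 cofactor, and among 5 tested genes of vitamin B6 handling and related decarboxylases 2 rose: Ddc, which makes dopamine and serotonin (2.06, SE 0.21, limma adjusted p = 0.00348), and Pdxk, which activates vitamin B6 (1.25, SE 0.16, adjusted p = 0.00778).

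Of 6 tested genes for the granule matrix and protease processing, 3 rose and 0 fell by limma (1 lower at an unadjusted p under 0.05). Ctsl, a lysosomal cathepsin, rose by 1.28 (SE 0.16, adjusted p = 0.00654), Cst7, a cathepsin inhibitor, by 0.82 (SE 0.11, adjusted p = 0.00975), and Ndst2, which sulphates heparin and is needed for protease storage, by 0.63 (SE 0.09, adjusted p = 0.0114). The call of Ndst2 was lost without control replicate 1 or knockdown replicate 1. Ctsc, which activates chymases by removing a dipeptide, was well above background on 1 of the 6 arrays and was not tested. Srgn, the serglycin core protein, was at -0.51 (adjusted p = 0.084).

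Among 14 tested genes of granule formation and exocytosis, 1 rose and 2 fell. Rab27b, a granule-docking GTPase, fell by 1.44 (SE 0.10, limma adjusted p = 0.00121). Vamp3 rose by 0.60 (adjusted p = 0.0154) and Vamp8, a membrane fusion protein of mast cell secretion, fell by 0.48 (adjusted p = 0.0356). Leaving out control replicate 1 or any 1 knockdown array ended the call of Vamp3, and leaving out any 1 array that of Vamp8.

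Among 13 tested surface receptor genes of mast cells and basophils, 6 rose and 1 fell. Il1rl1, the interleukin-33 receptor, had signals of 425, 606 and 569 on the control arrays and 4570, 4910 and 5690 on the knockdown arrays, a rise of 3.11 (SE 0.19, limma adjusted p = 0.000748). Cd200r3 and Cd200r4, receptors of the CD200 family, rose by 2.31 (SE 0.18; 1.31 with normexp) and 2.01 (SE 0.18; 1.07 with normexp), and the adenosine receptor Adora3 by 1.43 (SE 0.14), with adjusted p of 0.00143, 0.00249 and 0.00298. Kit, the receptor for Kit ligand, was at 0.40 (adjusted p = 0.117). Siglecf (0.78, adjusted p = 0.00938) and Csf2rb2 (0.55, adjusted p = 0.0253) also rose and Itgb7 fell by 1.25 (adjusted p = 0.0427), all named after their values were seen. Siglecf lost its call without knockdown replicate 1, Csf2rb2 without any 1 array, and Itgb7 without any 1 array except knockdown replicate 3. Fcer1a and Ms4a2, the IgE receptor chains characteristic of mast cells and basophils, were well above background on 0 of 6 arrays.

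Of 7 tested genes for lipid mediators, cytokines and serotonin, 3 rose and 0 fell by limma (1 lower at an unadjusted p under 0.05). Tph1, the enzyme that starts serotonin synthesis, rose by 2.26 (SE 0.23, adjusted p = 0.00364; 0.91 with normexp), Tnf by 2.07 (SE 0.15, adjusted p = 0.00119; 0.82 with normexp) and Alox5, which starts leukotriene synthesis, by 1.90 (SE 0.13, adjusted p = 0.00119). Of 12 tested transcription factor genes of the lineage, 1 rose and 3 fell. Gata2 rose by 1.22 (SE 0.10, adjusted p = 0.00199). Runx1 fell by 0.93 (SE 0.10, adjusted p = 0.00388), Stat5a by 0.89 (SE 0.11, adjusted p = 0.007) and Tal1 by 0.50 (SE 0.11, adjusted p = 0.0424), the last lost when any 1 array was left out. Mitf was well above background on 2 control and 0 knockdown arrays and was not tested. Array median scaling ended the calls of Gata2 (0.99), Runx1, Stat5a, Tal1, Pdxk, Ctsl, Cst7, Ndst2, Vamp3, Vamp8, Siglecf and Csf2rb2 among these lists, and of Nfatc4, Hltf, Alas2, Hbb-bt, Gp1ba and Cd68 elsewhere in the text. Slide row 1 alone, with 2 arrays per group, ended those of Runx1, Tal1, Pdxk, Ctsl, Cst7, Ndst2, Vamp3, Vamp8, Siglecf, Csf2rb2, Itgb7, Nfatc4, Hltf, Hbb-bt, Gp1ba and Cd68. Testing with no detection filter ended those of Tal1, Ndst2, Vamp3, Vamp8, Csf2rb2, Itgb7, Nfatc4, Hltf, Gp1ba and Cd68. A block for the replicate number ended those of Stat5a, Tal1, Pdxk, Ctsl, Cst7, Ndst2, Vamp3, Vamp8, Siglecf, Csf2rb2 and Itgb7. It also ended those of Nfatc4, Hltf, Slc4a1, Hbb-bt, Gp1ba and Cd68. A block for the slide row ended those of Tal1, Vamp8, Nfatc4, Hltf and Cd68. Quantile normalization ended those of Tal1, Itgb7 and Hltf, normexp that of Nfatc4, and averaging over probes that of Cd68. Over the 10 lists the median changes ran from -0.26 (transcription factors) to 0.55 (surface receptors), beside -0.03 over all genes.

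**Figure D4:**
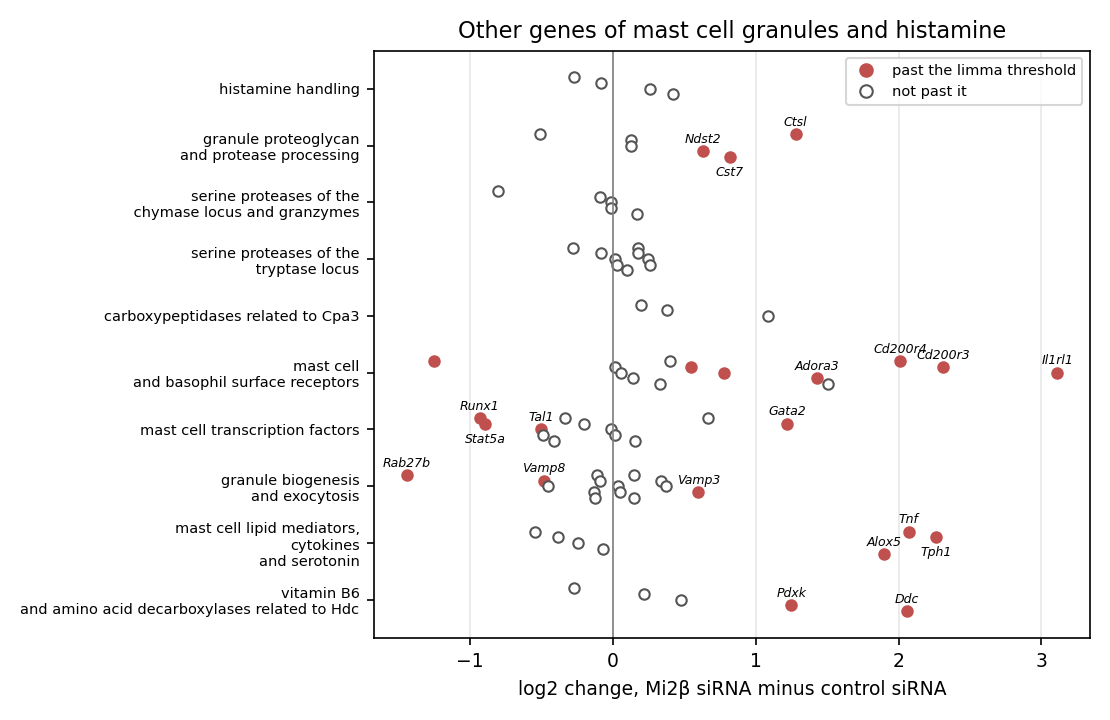
Log2 change (Mi2β siRNA minus control siRNA, horizontal axis) of every tested gene of 10 lists of mast cell and histamine genes other than the members, each point 1 gene, with small vertical offsets only to separate points. Filled red points passed the limma threshold and open points did not. Il1rl1 stands furthest right at 3.11 and Rab27b furthest left at -1.44, while the 3 protease lists have no filled point.

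Markers of other blood cells were examined beside these values. The erythroid list, whose largest terms are globins, summed to 3990 to 4520 on control arrays and 4330 to 4700 on knockdown arrays, and 5 of its 12 genes passed in one direction or the other. Epb42 (1.85, or 0.69 with normexp), Alas2 (1.06) and Hbb-bt (0.81) rose by limma, and Ahsp (-1.11) and Slc4a1 (-1.04) fell. Hbb-bt lost its call without knockdown replicate 1, and Slc4a1 without control replicate 1, control replicate 2 or knockdown replicate 1. Of 10 mast cell or basophil markers other than the members, 5 were well above background on every control array, and Fcer1a, Ms4a2 and Mrgprb2 on 0 of 6 arrays. The summed signal of this list, like that of the others in units of each array's 75th percentile, was 8.13 to 9.23 on control arrays and 20.6 to 23.9 on knockdown arrays, and 2 of its 5 tested genes rose (Il1rl1 and Cd200r3). Most of the rise of the sum is Il1rl1, which went from 0.50 to 3.60 in log2 units, while Kit went from 2.66 to 3.05 and did not pass, nor did Slc18a2 and Prss34. The eosinophil list went from 0.288 to 0.354 up to 0.73 to 0.88, with rises of Prg3 and Siglecf (0.78, or 0.40 with normexp), and with Epx and Ear1 well above background on 0 of 6 arrays. Prg3 was well above background on 0 of 3 control arrays and was 9.16-fold higher with the floor used for Tpsab1. Its fitted change was 3.24, or 1.28 with normexp, from control values not well above background. Like Tpsab1 and Tpsg1, Prg3 passed the detection filter only through the knockdown arrays. The megakaryocyte list went from 38.6 to 44.4 down to 14.2 to 18.5, with falls of Pf4 (-1.62), Gp9 (-2.18) and Gp1ba (-0.63), the last lost without any 1 array except knockdown replicate 3. Itga2b, of the same list, was at 1.51 (SE 0.35, adjusted p = 0.0508), and passed without control replicate 1, with normexp (0.52), with quantile normalization or median scaling, with the filter of all 6 arrays and with an intensity trend. The neutrophil list was at 2.83 to 4.27 and 3.24 to 3.77, and the macrophage list at 3.59 to 3.91 and 3.91 to 4.16. The T or NK cell list was at 8.9 to 10.5 and 8.16 to 9.5, and the B cell list at 0.217 to 0.269 and 0.215 to 0.354. The fibroblast list was at 0.21 to 0.253 and 0.187 to 0.348. Cd68 of the macrophage list rose by 0.53 (limma adjusted p = 0.0305), a call lost without any 1 array except control replicate 1. No other tested gene of these lists passed. The part of any of these cell types in the members' values was not tested.

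For the 6 members well above background on all 6 arrays, the genes with the most similar array profile were found by Pearson correlation over the 6 arrays, which form 2 groups and so are not independent points. For Mcpt4 the closest were Chst10 (r = 0.9995), Mcpt1 (0.9994) and Kcne3 (0.9992), and for Mcpt1 they were Pde6h (0.9996), Chst10 (0.9996) and P2rx4 (0.9994). For Mcpt2 they were Ank (0.9993), Nxpe3 (0.9982) and Inppl1 (0.9981). Hdc was closest to Nagk (0.9996), Phpt1 (0.9994) and Actn3 (0.999). The profile of Cpa3 was closest to Qsox2 (0.9946), Cstad (0.9939) and Cntnap5a (0.9899), and that of Tpsb2 to A730036I17Rik (0.9905), Ankrd36 (0.9855) and 4930449C09Rik (0.9806). Among the genes so found only Mcpt1, in the list of Mcpt4, is a member of the set.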

How the data were processed

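Total RNA of 3 control and 3 Mi2β siRNA samples was labelled with a single dye and read on 6 Agilent arrays. The deposited values are background-subtracted spot intensities, which the authors' scanner software wrote (named in the file headers as Feature Extraction 10.7.3.1), with no scaling from array to array. The use of limma is recorded as well, per the submitters' processing notes.

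Here, control and outlier-flagged spots were dropped and repeated spots of a probe averaged. Processed signals were taken to log2 and centred on the 75th percentile of their array. A probe needed a call well above background on 3 or more of the 6 arrays, and the probe with the highest mean stood for its gene. All 22133 genes were fitted with limma 3.58.1 in R 4.3.3 (lmFit, eBayes, two-sided, Benjamini-Hochberg, adjusted p under 0.05). The fit was also run on simulated independent values. They had no shifts between arrays and no detection floor, so that run does not cover such effects. "Rose" and "fell" mean past that threshold. Errors of the members are over arrays, and those of other genes are from the fit. The number of arrays limits the precision.

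The members and lists were chosen with earlier results of these data known. Named were every member and probe, Chd4, in each list up to 4 genes past the threshold by size of change or else 2 with the largest change, and the 3 genes most correlated with each member on all arrays. Windows of neighbouring genes, motifs, and other genes named for their change, marker role or function were chosen after values were seen. Probe coordinates are of mm9 and promoter windows of GRCm38.p6, and no genome of either was used, so exons and untranslated regions under probes are not given. Promoter windows were aligned globally (match 1, mismatch -1, gap opening -2, extension -0.5). The alternatives tried were other background corrections, scalings, filters, probe rules, variance models, blocks and left-out arrays.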

Additional observations from a re-analysis of the deposited data

How the results depend on the processing

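Over 19 alternatives 5 to 7 members passed the threshold upward and 0 downward. Mcpt1, Mcpt2, Mcpt4 and Hdc passed in all 19, Tpsab1 in the 18 that tested it, Tpsg1 in 12 of 18, Cpa3 in 2 (the filter of all 6 arrays and array weights) and Tpsb2 in 0. The dim members depend most on the background correction: normexp took Tpsab1 from 2.67 to 0.48 and Tpsg1 from 2.08 to 0.38.

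The number of all genes that rose was 496 with median scaling, 661 with no detection filter, 2180 with array weights, 494 with slide row 1 alone and 557 to 898 with 1 array left out. The number that fell was 1662 with normexp, 335 with median scaling, 332 with no detection filter, 1788 with an intensity trend, 2549 with array weights, 226 with slide row 1 alone and 256 to 681 with 1 array left out. Of the listed mast cell and histamine genes, 16 rose and 6 fell. The counts became 9 and 2 with median scaling or slide row 1 alone. Only the count that fell moved over 1.5-fold with normexp (10), no detection filter (3), an intensity trend (10), array weights (12) and any 1 control array or knockdown replicate 1 left out (3). It was 4 without knockdown replicate 2 or 3. No result reversed its direction past the threshold under these alternatives. The causes were not tested.

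Slide row 1 held 2 arrays of each group and row 2 held 1 of each. With the row as a block, and in row 1 alone, 6 members passed. Replicate 3 of each group was the array in row 2. Deviations of arrays with the same replicate number had correlations of 0.21, -0.32 and 0.13. So few arrays cannot show whether the numbers pair the samples, and the main fit used no pairing. With the replicate block 502 genes rose and 183 fell, 9 and 2 of the listed genes, and 6 members passed.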
